A study of Mus musculus with 5 samples.

Results

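The regions described here are the CTCF peaks nearest the centromeric ends of the mouse autosomes. They were chosen by position alone, as the peaks of chromosomes 1 to 19 whose midpoint lay from 3000000 to 8000000 on mm10, and they numbered 860 of the 22756 peaks in the list, or 3.78%. The assembled sequence of these chromosomes begins at about 3 Mb, and no peak lay before that position. The cells were NIH3T3, an established mouse embryonic fibroblast line, and CTCF-bound DNA was immunoprecipitated and sequenced. All 5 libraries came from cells that carried H2B-mCherry, the rtTA3G transactivator and a TRE3G-controlled gene for CDX2, a homeobox factor of the intestine and trophectoderm. The CTCF_Dox group had 2 libraries, made after 6 h of doxycycline (500 ng/µL as labelled), the CTCF_noDox group had 2 made without doxycycline, and Input_noDox was a single library without doxycycline or antibody. The labels do not say whether the cells were 1 clone.

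The deposited values are 1 peak list merged over both conditions. It gives chromosome, start and end, with no height or score, so no peak could be tied to doxycycline or to a replicate, and the depth behind a peak is unknown. Cells with and without doxycycline were therefore not compared. Tests were run over the 19 autosomes as units, paired by chromosome, and their p-values measure the spread between chromosomes and not between libraries.

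Mouse autosomes carry the centromere at their start, and the megabases before the first assembled base hold satellite repeats that reference assemblies leave as a gap. CTCF is a zinc finger protein that binds a long GC-rich motif and stops the cohesin ring as it extrudes DNA, so that bound sites become loop anchors and domain borders. It also binds at promoters and acts as an insulator at imprinted genes.

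Peaks overlapped 64 promoters of 63 genes in these windows. That was 5.04% of the 1270 window promoters, beside 3.60% in the interior and 3.72% of all 31396 promoters analysed. The sequences below show where the core CTCF motif stands in 4 of the 64. A promoter here is the 300 bases from 250 before to 50 after a RefSeq gene start (GRCm38.p6, the assembly behind mm10). The motif was searched on both strands as CC, any 3 bases, AGG, any base and GGC, and in a looser form that allows any base in place of that A and so takes in every match of the first. The naming rule took 6 promoters, widest peak first and 1 per chromosome, from the 27 that a peak overlapped and that held the first, stricter form. Holding the motif was thus a condition of the choice. The 4 shown are the protein-coding ones among the 6, and in each the motif (capitals) lies inside the peak. Ghr encodes the growth hormone receptor (chr15:3583303-3583602, minus strand), Vmn2r29 a vomeronasal receptor (chr7:7278240-7278539, minus strand), Arl2 a small GTPase of tubulin folding (chr19:6141088-6141387, minus strand) and Steap1 a metalloreductase-family membrane protein (chr5:5749268-5749567, minus strand). Each is printed 5′ to 3′ on the gene's strand.
Ghr: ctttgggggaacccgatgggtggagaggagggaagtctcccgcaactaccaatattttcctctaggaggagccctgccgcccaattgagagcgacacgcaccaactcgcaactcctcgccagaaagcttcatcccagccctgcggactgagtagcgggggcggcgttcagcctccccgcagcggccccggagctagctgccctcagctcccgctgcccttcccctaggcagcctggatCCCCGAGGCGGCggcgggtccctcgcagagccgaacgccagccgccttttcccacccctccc
Vmn2r29: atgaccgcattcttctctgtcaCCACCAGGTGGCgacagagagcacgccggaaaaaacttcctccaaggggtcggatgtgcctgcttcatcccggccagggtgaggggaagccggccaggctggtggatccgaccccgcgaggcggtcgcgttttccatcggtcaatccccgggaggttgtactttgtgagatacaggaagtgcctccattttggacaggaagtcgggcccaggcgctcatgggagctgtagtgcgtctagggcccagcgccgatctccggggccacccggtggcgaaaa
Arl2: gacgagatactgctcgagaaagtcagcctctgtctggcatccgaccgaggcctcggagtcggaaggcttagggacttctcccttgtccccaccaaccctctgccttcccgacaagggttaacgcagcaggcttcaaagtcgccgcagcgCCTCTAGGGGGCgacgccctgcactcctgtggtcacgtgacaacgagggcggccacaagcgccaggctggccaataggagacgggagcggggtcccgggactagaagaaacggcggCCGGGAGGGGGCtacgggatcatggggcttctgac
Steap1: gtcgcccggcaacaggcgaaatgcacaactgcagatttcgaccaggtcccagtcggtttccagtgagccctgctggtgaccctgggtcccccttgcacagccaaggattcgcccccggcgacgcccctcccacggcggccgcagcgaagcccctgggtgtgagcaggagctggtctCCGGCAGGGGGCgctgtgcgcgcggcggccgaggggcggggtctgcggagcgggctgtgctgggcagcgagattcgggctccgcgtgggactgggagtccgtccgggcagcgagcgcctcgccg

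With the gene start counted as 0, the Ghr match begins at -12, under a peak of 746 bp at 3583003 to 3583748. The Steap1 match begins at -74, under a peak of 495 bp. Arl2 has 2 matches, beginning at -101 and 15, under a peak of 678 bp. The Vmn2r29 match begins at -228, under a peak of 717 bp. The non-coding Gm46266 on chromosome 11 and Gm26901 on chromosome 1 complete the 6; the Gm46266 match lies outside its peak.

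Of the 64 window promoters that a peak overlapped, 27 (42.2%) held the stricter motif and 30 (46.9%) the looser one. Of the 1206 window promoters without a peak, 49 (4.06%) held the stricter motif. In the interior 254 of 1020 overlapped promoters (24.9%) held it. Over all 31396 promoters of the 18 chromosomes with promoter sequences the share was 3.48%. Chromosome 18 promoters were not analysed here. The looser motif stood in 39.4% of overlapped interior promoters, 11.2% of window promoters without a peak and 11.2% of all promoters. Overlapped promoters were also richer in G and C, with a median of 62.3% in the windows against 53.0% for window promoters without a peak, and the part of base composition in the motif shares was not tested. Chromosome 19 supplied 15 of the 64 and chromosome 16 supplied 11. A motif match is a description of the letters and not a measured site.

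Peaks near the centromeric ends were very unevenly spread over chromosomes. The first 5 Mb of chromosome 19 held 223 peaks, those of chromosome 11 held 120 and those of chromosome 16 held 82, together 425 of the 860 (49.4%). The other 16 chromosomes shared 435. At the low end, chromosome 9 had 7 peaks, chromosome 3 had 8 and chromosome 14 had 11. Per Mb the windows therefore ran from 1.40 on chromosome 9 to 44.6 on chromosome 19, with a median of 6.00.

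Density in these windows was compared with the interior of the same chromosomes, meaning everything beyond 8 Mb except the last 5 Mb. The windows averaged 9.05 ± 10.1 peaks per Mb and the interiors 9.31 ± 3.34 (SD, 19 chromosomes), a mean difference of -0.256 that did not pass (two-sided permutation test over chromosomes, adjusted p = 0.985 over 9 measures). By count, 15 windows were sparser than their interior and 4 were denser. The denser ones were chromosome 19 (44.6 against 13.9 per Mb), chromosome 16 (16.4 against 7.13), chromosome 11 (24.0 against 19.6) and chromosome 18 (7.20 against 6.61). The sparsest relative to its own interior was chromosome 9, with 1.40 against 9.11, followed by chromosome 3 with 1.60 against 6.96. Without chromosome 19 the mean difference was -1.98 per Mb, and on a log2 scale, chosen after the differences were seen, it was -0.52 over 19 chromosomes (adjusted permutation p = 0.161). Neither passed.

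**Figure D1:**
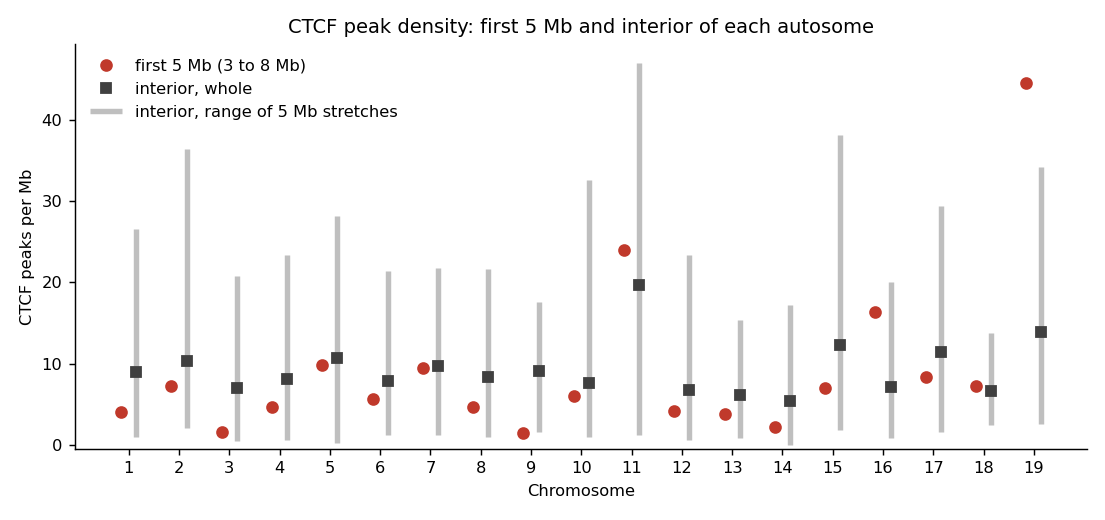
CTCF peaks per Mb (vertical axis) for each autosome (horizontal axis), with red circles for the first 5 Mb, black squares for the whole interior and grey bars for the range over the interior's 5 Mb stretches. On chromosome 19 the first 5 Mb reach 44.6 per Mb, above every interior stretch, while on the other chromosomes except 9 the circle lies within the grey bar.

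Each window was also ranked among stretches of the same length. When each chromosome was divided into 5 Mb stretches from 3 Mb on, the first stretch was the fullest on chromosome 19 (rank 1 of 11). It ranked 4 of 19 on chromosome 16, 6 of 17 on chromosome 18 and 8 of 23 on chromosome 11. It ranked 24 of 24 on chromosome 9 and 30 of 31 on chromosome 3. The 19 windows held a median of 30 peaks, against 34 in the 434 interior stretches.

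Gene number varied as well. The chromosome 19 window, the start of one of the most gene-rich mouse chromosomes, had 183 protein-coding genes, 36.6 per Mb against 9.94 in its interior, and its 1.22 peaks per protein-coding gene compare with 1.40 in the interior. Chromosome 11 had 1.46 peaks per gene in the window and 1.52 in the interior. Over all 19 chromosomes windows averaged 1.08 ± 0.506 peaks per protein-coding gene and interiors 1.11 ± 0.268 (SD, adjusted permutation p = 0.985; higher in 8 windows and lower in 11). Across the 19 windows the peak count and the protein-coding gene count had a Spearman correlation of 0.569 and Pearson's r of 0.801, and r was 0.539 without chromosomes 19 and 7, the windows farthest from the median gene count. All points come from the same merged list, so these are descriptions.

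By gene, the highest ratio to its own interior was on chromosome 16 and the 3 lowest were on chromosomes 14, 9 and 7. The chromosome 16 window had 1.95 peaks per protein-coding gene against 1.01 in its interior. Chromosome 14 had 0.138 against 0.797. Of its 80 protein-coding window genes, 77 carry provisional symbols such as Gm3264 or 2610042L04Rik. A stretch of 1997 kb between 4111488 and 6108740 held 29 protein-coding genes and no peak. Chromosome 7 had 0.385 against 0.729, and 48 of its 122 protein-coding window genes were olfactory or vomeronasal receptors or carried Zfp, Zscan or Nlrp symbols. Chromosome 9 had 0.250 against 0.926, with no peak over 3265 kb from 3403430 to 6668640. That stretch holds 11 protein-coding genes, among them the inflammatory caspase genes Casp1 and Casp4, the growth factor gene Pdgfd and the glutamate receptor gene Gria4. Genes in families of similar copies can share short reads, and a low count there is uncertain.

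**Figure D2:**
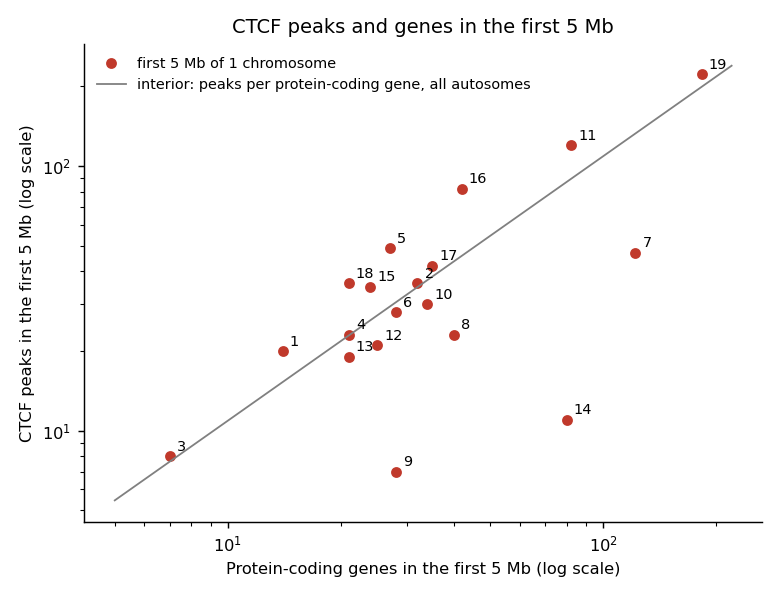
CTCF peaks (vertical, log scale) against protein-coding genes (horizontal, log scale) in the first 5 Mb of each autosome; numbers name the chromosomes and the line marks the pooled interior ratio of 1.09 peaks per gene. Chromosomes 7, 9 and 14 lie far below the line and chromosome 16 above it.

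Along the windows, counts were highest in the step nearest the centromere and lowest in the farthest. Summed over 19 chromosomes, the 1 Mb steps from 3 Mb held 221, 195, 179, 166 and 99 peaks. Of the 221 in the first step, 58 lay in the first 200 kb, where the placement of reads was not tested. Protein-coding genes numbered 190, 237, 177, 155 and 107 in the same steps, and peaks per gene ran between 0.823 and 1.16 with no steady course. Chromosome 19 alone gave 31, 54, 63, 54 and 21 peaks. Its 3 middle steps were the fullest of all 95. Without it the steps held 190, 141, 116, 112 and 78 peaks.

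**Figure D3:**
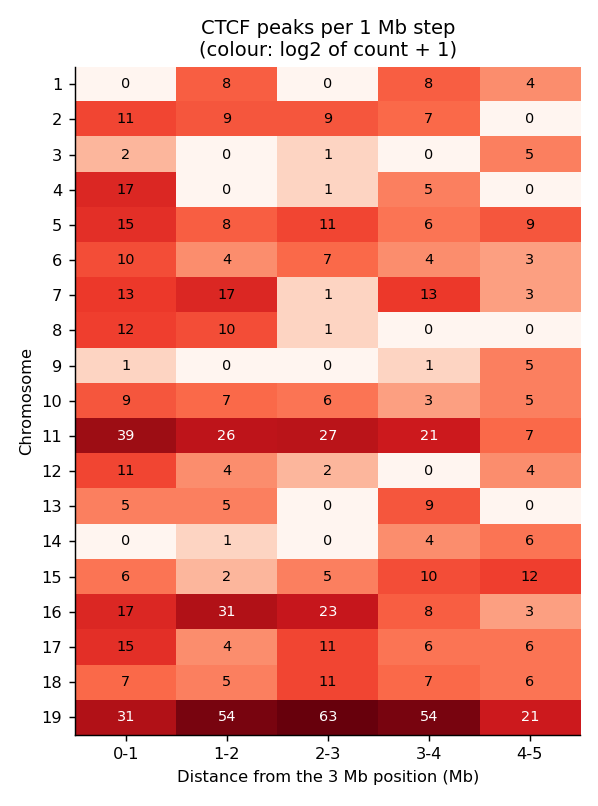
Number of CTCF peaks in each 1 Mb step from the 3 Mb position (columns) on each autosome (rows), with darker red for more peaks on a log2 scale. Chromosome 19 has the highest counts of the middle steps, at 54, 63 and 54, and chromosomes 1 and 14 have 0 in the first step.

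The widest peaks sat almost at the first assembled base. Of the 860 peaks, 11 were 1 kb or wider (1.28%, exact 95% interval 0.640 to 2.28%), against 33 of 20244 in the interior (0.163%, 0.112 to 0.229%) and 0.231% of all autosomal peaks. These intervals cover counting error only and not the spread between chromosomes. Averaged by chromosome, peaks this wide made up 1.57% of a window and 0.153% of an interior, higher in 6 windows and lower in 10. That difference did not pass (adjusted permutation p = 0.383, 19 chromosomes). Of the 11 peaks of 1 kb or more in windows, 9 lay within 200 kb of the 3 Mb position, on chromosomes 4, 6, 11, 17 and 18, and the other 2 lay on chromosome 19. The widest was 3769 bp on chromosome 4 at 3081255 to 3085023, the second widest autosomal peak of all. It was followed by 3360 bp on chromosome 11 at 3100530 to 3103889 and 2985 bp on chromosome 18 at 3117051 to 3120035. Chromosome 4 had 2 more, of 2426 and 1319 bp, chromosome 18 another of 2365 bp, chromosome 6 had 1825 and 1150 bp, and chromosome 17 had 1747 bp. The 200 kb limit was set after these peaks were seen, so no test was made of it.

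Only 58 peaks lay in those first 200 kb, and 9 of them (15.5%) were 1 kb or wider, against 2 of the 802 (0.249%) from 3.2 to 8 Mb. The 58 came from 10 chromosomes: 17 on chromosome 11, 14 on chromosome 4 and 1 to 6 on each of the others. The nearest gene to the wide peaks was the vomeronasal pseudogene Vmn1r-ps2 on chromosome 4 (20.6 kb away), Vmn1r3 on the same chromosome (4.604 kb), Vmn1r238 on chromosome 18 (3.95 and 7.84 kb), the pseudogene Vmn1r261 on chromosome 6 (9.58 kb), Pisd-ps1 on chromosome 11 (21.8 kb) and Gm10232 on chromosome 17 (13.7 kb). The 1150 bp peak on chromosome 6 lay at an end of the non-coding LOC115490388. A 785 bp peak on chromosome 17 lay at an end of Pisd-ps2. Whether reads of the unassembled repeats or of similar copies were placed there was not tested, since the list carries no reads.

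**Figure D4:**
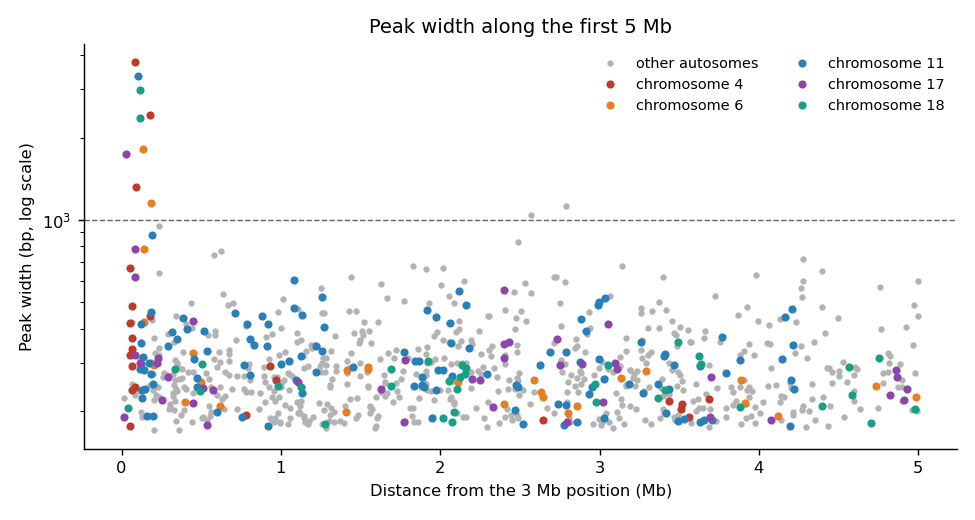
Peak width in bp (vertical, log scale) against distance from the 3 Mb position in Mb (horizontal) for the 860 peaks, coloured for chromosomes 4, 6, 11, 17 and 18. All 9 coloured points above the dashed 1 kb line lie in the first 0.2 Mb, and the 2 grey ones belong to chromosome 19.

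Over all 860 peaks the widths were close to those of the interior. The 860 peaks had a median of 269 bp, with quartiles of 217 and 345 bp, and the interior peaks a median of 262 bp, with quartiles of 217 and 316 bp. Averaged by chromosome, the median was 258 ± 25.4 bp in windows and 261 ± 7.68 bp in interiors (SD, adjusted permutation p = 0.985). Peaks of 500 bp or more made up 5.31 ± 4.97% of a window and 3.44 ± 1.71% of an interior (adjusted permutation p = 0.420), beside 4.05% of all autosomal peaks. The difference was 1.87 percentage points, and with the window taken from 3.2 Mb on it was -0.261.

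Neighbouring peaks stood further apart in the typical window than over the interior taken whole. The median distance between neighbouring midpoints averaged 86.3 ± 76.5 kb in windows and 38.8 ± 11.4 kb in interiors (SD), longer in 15 of 19 windows (adjusted permutation p = 0.0153), the 1 measure of the 9 that passed. That call did not hold against interior stretches of the same 5 Mb length, an alternative chosen after seeing the data: those averaged 88.7 kb, and the difference was -2.44 kb (adjusted permutation p = 0.978). The last 5 Mb of the chromosomes, also short, averaged 86.0 ± 116 kb. Summed over chromosomes, where the crowded ones weigh most, the median was 27.6 kb among the 860 peaks and 33.8 kb in the interior.

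Some stretches were tightly packed. On chromosome 4, 9 peaks followed one another at under 10 kb over 15.3 kb from 3052493, 6 of its neighbour distances being under 1 kb, all of them outside annotated genes. On chromosome 11, 9 peaks ran over 35.2 kb from 3115041 to 3150222 across Pisd-ps1 and into Sfi1, which encodes a centrin-binding protein of the centrosome. Both stretches lay in the first 200 kb from the 3 Mb position, where the placement of reads was not tested. Chromosome 16 had 6 peaks over 26.0 kb at Tfap4, and chromosome 19 had 6 over 22.9 kb beside Malat1. At the other extreme, chromosomes 12, 3 and 8 had peak-free stretches of 2451, 2358 and 2005 kb within their windows, the chromosome 8 one without a protein-coding gene and the chromosome 3 one with Hnf4g, Zfhx4 and Pex2.

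Peaks were also sorted by position relative to genes. Of the 860, 168 (19.5%, exact 95% interval 16.9 to 22.3%) stood at a gene end, meaning no more than 1 kb from it, beside 16.5% of all autosomal peaks, 413 (48.0%) lay elsewhere in a gene body and 279 (32.4%) lay outside genes, beside 34.7%. The gene-end share rests on chromosome 19, where it was 28.7%; without it the share was 16.3% in windows and 16.4% in interiors. Averaged by chromosome it was 16.4 ± 8.42% in windows and 16.4 ± 1.79% in interiors (adjusted permutation p = 0.985). Peaks outside genes averaged 41.2 ± 17.9% in windows and 35.3 ± 2.76% in interiors (adjusted permutation p = 0.420), with 84.2% on chromosome 13 and 21.1% on chromosome 19 as the extremes. On the 18 chromosomes with annotated starts used here, 80 of 163 gene-end peaks in windows (49.1%) stood within 1 kb of a gene start, against 1389 of 3223 (43.1%) in interiors.

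Of the 866 protein-coding genes of the windows, 127 (14.7%) had a peak at an end, beside 12.6% of the 20558 on these chromosomes, and 453 (52.3%) had one in the body or within 10 kb, beside 53.4%. Chromosome 19 gave 61 of the 127. Without it the share was 66 of 683 (9.66%) in windows and 12.3% in interiors. By chromosome the windows averaged 10.6 ± 10.1% and the interiors 12.5 ± 3.22%, lower in 15 of 19 windows (adjusted permutation p = 0.836). The windows of chromosomes 3, 4, 12 and 13 had none.

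Protein-coding genes were then ranked in each window by the peaks in their bodies. Rbfox1, a neuronal splicing factor gene of 1528 kb on chromosome 16, held 12, and Sfi1 on chromosome 11 held 10. Cdk14, a cyclin-dependent kinase gene on chromosome 5, and Macrod1, an ADP-ribose hydrolase gene on chromosome 19, held 8 each. Svil, the gene of the actin-binding protein supervillin on chromosome 18, held 6. Wdr70 on chromosome 15 also held 6, but it runs past the 8 Mb limit and 3 of them lay inside the window, as many as in Dab2, Egflam and Fyb. Frmd4a on chromosome 2 and Arhgef18 on chromosome 8 held 5 each. The photoreceptor gene Rp1 on chromosome 1 held 4. On chromosome 10, Mthfd1l, of mitochondrial one-carbon metabolism, and Syne1, which encodes a nuclear envelope protein, tied with 4. Tiam2 tied with Arid1b on chromosome 17 and Ssc5d with Usp29 on chromosome 7, all with 3. Dync1i1 on chromosome 6 held 2, and Apob, the apolipoprotein B gene, tied with Dnmt3a and Klhl29 on chromosome 12 with 2. On chromosomes 3 and 9, Zc2hc1a and Dcun1d5 were the sole protein-coding genes with a peak in the body, 1 each. On chromosomes 4, 13 and 14 no protein-coding gene had more than 1 in its body, and 5, 3 and 6 genes tied, among them Plag1, Asb13 and Gm10044. Sfi1 held its 10 peaks within 71.5 kb, all of them in the first 200 kb from the 3 Mb position. Whether reads of unassembled repeats or similar copies were placed there was not tested. Per 100 kb of body and flanks of 10 kb, Rbfox1 and Cdk14 had 0.840 and 1.34, against 15.3 at Sfi1.

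Per 100 kb of body and 10 kb each side, the densest protein-coding genes were short genes of chromosome 19 with 4 peaks each. They were Znhit2 at 18.8, Fau, which encodes a ribosomal protein fused to a ubiquitin-like one, at 18.5, the glutathione transferase gene Gstp3 at 18.1, Ppp1r14b at 17.96 and Fkbp2 at 17.6. Znhit2 and Fau are neighbours, as are Ppp1r14b and Fkbp2, and each pair shares the same 4 peaks. Znhit2 has none in its body. The fullest 1 Mb, from 5000001 to 6000000 on chromosome 19, held 63 peaks and 51 protein-coding genes. Its leading genes included Pacs1 with 6 peaks, Efemp2, an elastic fibre gene, with 5 and Cfl1, the gene of the actin-severing protein cofilin, with 4. The 4 of Cfl1 are among the 5 of Efemp2. The 1 Mb before it held 54 peaks, led by the receptor kinase gene Grk2 and the synaptotagmin gene Syt12 with 6 each, then Gstp3 and Ankrd13d with 4. The 1 Mb after it also held 54, led by the phospholipase gene Plcb3 with 6 and by Cdc42bpg, the autophagy gene Atg2a and the endosomal recycling gene Ehd1 with 5. Ehd1 has 0 in its body and shares peaks with Cdc42bpg.

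The 7 gene lists, chosen with earlier results of these data known, are described without a test. A member counted as carrying a peak when a midpoint lay in its body or within 10 kb. A peak near neighbouring genes counted for each of them. The shares were not adjusted for gene length or for the crowded chromosome 19 window. That window held 4 of the 15 listed cytoskeleton and matrix genes, 4 of the 37 listed growth signalling genes and 3 of the 20 listed transcription factor genes. It also held 5 of the 19 genes on the chromatin and co-regulator list, 1 of the 61 sensory receptor and zinc finger genes and 0 of the 13 imprinted ones. Among genes of the cytoskeleton and matrix of fibroblasts, 13 of the 15 in windows carried a peak (median 2, against a median of 1 and 53.4% over all protein-coding genes). Svil had 7 and Ehd1 had 5, with 0 in the Ehd1 body. Cfl1 and the latent TGF-beta binding gene Ltbp3 had 4 each, while Ezr and Kif5b had none. Ligands, receptors and kinases of growth signalling carried a peak in 26 of 37 (70.3%, median 2), beside 53.4%. Cdk14 had 8, the Wnt co-receptor gene Lrp5 had 7, the calmodulin kinase gene Camk2b had 6 and Igfbp3, which binds insulin-like growth factors, had 4. The insulin receptor gene Insr, the opioid receptor genes Oprm1 and Oprk1 and the Wnt receptor gene Fzd1 were among the 11 without.

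The listed developmental and inducible transcription factor genes carried a peak in 13 of 20 (65.0%, median 1), beside 53.4% of all protein-coding genes. The list leaves out other transcription factor genes of the windows. Tfap4, a helix-loop-helix factor gene, had 6, of which 2 at an end were 207 and 197 bp wide with midpoints 449 bp apart. The nuclear receptor gene Esrra and the zinc finger gene Glis2 had 3 each and the AP-1 gene Fosl1 had 2. Sox17, Klf6, Zeb1, Mkx, Rela, Dlx6 and Zfp438 had none. The list of chromatin and co-regulator genes also takes in genes of splicing and RNA binding. Its members carried a peak in 12 of 19 (63.2%, median 1), beside the same 53.4%. Brms1 and the histone demethylase gene Kdm2a led with 4, followed by the splicing factor gene Sf3b2 and the RNA-binding protein gene Ewsr1 with 3. The 4 of Brms1 lay outside its own body, in the body of a neighbouring gene. The 7 without a peak included Kat5 and Ncoa1.

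Imprinted genes and their neighbours at the starts of chromosomes 6 and 7 carried a peak in 4 of 13 (30.8%, median 0), beside 53.4% of all protein-coding genes, and none had one at an end, beside 12.6% of all protein-coding genes. On chromosome 7 the paternally expressed Peg3 had 1 peak, of 528 bp, in its body. Its neighbour Usp29 had 4, of which 3 lay in its own body and the remaining one was the Peg3 peak. On chromosome 6 Ppp1r9a and Asb4 had 1 each, while the paternally expressed pair Peg10 and Sgce, which share a promoter region, had none. Whether reads covered the regions without a listed peak is unknown.

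Sensory receptor and zinc finger families, matched by symbol and mostly on chromosome 7, carried a peak in 12 of 61 (19.7%, median 0), beside 53.4% of all protein-coding genes. At an end, 1 of the 61, Vmn2r29, had one (1.64%, beside 12.6%). In the body or within 10 kb, Zfp genes carried a peak in 6 of 24 and Vmn1r genes in 3 of 14. Olfr genes did so in 1 of 10, Vmn2r genes in 1 of 9 and Nlrp genes in 0 of 3. Vmn1r2, Vmn1r3 and Vmn1r238 had 2 each within 10 kb, all outside their bodies, which include the 2426 bp peak for the first pair and both wide peaks for Vmn1r238. Zscan5b had 2. The nuclear non-coding RNA genes Malat1 and Neat1, neighbours on chromosome 19, carried 4 and 2. Malat1 had 1 of 255 bp at an end and, 8.82 kb outside its body, the 1127 bp peak at 5786303 to 5787429.

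Against the last 5 Mb of the same chromosomes, the windows averaged fewer peaks, 9.05 ± 10.1 against 15.3 ± 13.6 per Mb, lower in 14 of 19 (adjusted permutation p = 0.298 over 9 measures). Per protein-coding gene they averaged 1.08 ± 0.506 against 1.41 ± 0.678, lower in 12 of 19 (adjusted permutation p = 0.298). Neither passed with all 19 chromosomes. Without chromosome 19 the difference per Mb was -8.11 and passed (adjusted permutation p = 0.0457). That setting was not planned beforehand, and this was the 1 call gained among 446 recomputed values. The other 7 measures did not pass, with adjusted permutation p from 0.671 to 0.994. Peaks of 1 kb or more made up 1.28% of the 860 and 0.552% of the 1450 near the distal ends.

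At the 8 Mb limit the members were compared with their nearest outsiders as a description. The last peak inside lay 2.52 to 2005 kb before it (median 116 kb), with a median width of 240 bp, and the first outside lay 26.0 to 4012 kb beyond it (median 242 kb), with a median width of 236 bp.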

How the data were processed

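Chromatin immunoprecipitation of CTCF, with a Drosophila chromatin spike-in and paired reads of 37 nt, was done per the labels' protocols. STAR, Picard and MACS2 (no version or role stated) and the builds mm10 and dm6 are listed in the submitters' processing notes. For peak thresholds, duplicate handling, pooling and use of the spike-in, nothing is stated. The authors deposited 1 list of positions (chromosome, start, end), merged over both conditions, with no normalisation and no counts; coordinates are counted from 1 here. Depth per sample is unknown. Intervals cover counting error only.

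Genes came from RefSeq for GRCm38.p6; 333 genes that carry a chromosome name but stand on scaffolds with coordinates of their own were left out, leaving 46709, of which 20558 were protein-coding. Peaks and genes were assigned to regions by midpoint. Chromosome ends were taken as the last gene or peak. A two-sided permutation test flipped the signs of the per-chromosome differences (100000 resamples, scipy 1.17.1), with Benjamini-Hochberg adjustment over 9 measures and a threshold of 0.05. Chromosomes with under 5 peaks in a region entered no test of width, gap or peak share. The procedure was tested on simulated peaks placed uniformly at random, with and without a raised density and width in the windows. Those peaks were not clustered, so the simulation cannot judge the gap call. The members, gene lists and tests were chosen with earlier results of these data known.

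Named genes were the protein-coding one with most peaks in its body on each chromosome (ties, found later, are given), the 5 densest protein-coding ones with 3 or more peaks, up to 4 in each of the 3 fullest 1 Mb steps, those nearest the 12 widest peaks, up to 4 per list, and those whose promoter is printed. A gene that this rule gives is not reported here. Genes named as having no peak, and those in peak-free stretches, were chosen after their values were seen. Peaks per condition, sequences under peaks outside promoters and chromosomes X and Y were not analysed here.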

Additional observations from a re-analysis of the deposited data

How the results depend on the processing

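No paired analysis was possible because the merged list carries no sample or replicate. The tests pair regions of the same chromosome, not samples. Of 446 recomputed values, 391 kept their direction and their side of the 0.05 threshold, 51 turned direction, 3 lost a call and 1 gained one. Every value that turned direction had an adjusted permutation p over 0.05 before and after, except the gap. Differences below are windows minus interiors, and the cause was not tested unless stated.

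With the window from 3 to 6 Mb the difference was 1.13 peaks per Mb, 3.84 bp in width, 10.6 kb in gap (call lost, 16 chromosomes) and -0.590 percentage points in gene-end share. From 3 to 13 Mb it was 0.0154 peaks per protein-coding gene, -0.591 in gene-end share and -1.04 protein-coding genes per Mb. From 4 to 8 Mb it was -1.37 in gene-end share and -0.0741 in the share of peaks of 500 bp or more. With peaks of at least median width it was 0.125 peaks per Mb, 11.4 bp in width and 73.1 kb in gap (call lost, 16 chromosomes). The gene-end share was -0.0980 with close neighbours merged, -0.813 without chromosomes 11 and 19, -1.01 with protein-coding genes alone as the gene set and -2.43 with ends widened to 2500 bp. Protein-coding genes per Mb were -1.04 without chromosomes 11 and 19.

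The following were chosen after seeing the data. From 3.2 Mb on the share of peaks of 500 bp or more was -0.261. Against 5 Mb interior stretches the width was 4.79 bp, the gap -2.44 kb and the share of protein-coding genes with an end peak 0.521. As log2 ratios the gap was 0.66 (call lost) and protein-coding genes per Mb -0.28.

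Leaving out each chromosome in turn gave -1.98 to 0.159 peaks per Mb, -0.0788 to 0.0110 peaks per protein-coding gene, -0.955 to 0.865 in gene-end share, -0.787 to 0.989 protein-coding genes per Mb and 35.1 to 51.9 kb in gap, where the call held each time. Against the distal ends, recomputed in this way alone, the ranges were -8.11 to -4.62 peaks per Mb, -15.9 to 21.2 kb in gap, -0.626 to 3.65 in the share outside genes and -0.762 to 1.35 in the share of protein-coding genes with an end peak. The density difference passed without chromosome 19 (-8.11), the 1 call gained. These recomputations against the distal ends were not planned beforehand.

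The list gives no depth, height or replicate, so the precision of each peak is unknown. Sequence shared by near-identical gene copies was not assessed.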
